A study of Mus musculus with 7 samples.

Results

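Expression of 10 regulators of mitochondrial biogenesis was examined in mouse erythroblasts that lack manganese superoxide dismutase (SOD2), the enzyme that detoxifies superoxide in the mitochondrial matrix. The members were named by gene. They include the PGC1 family of coactivators (Ppargc1a, Ppargc1b and Pprc1) and the nuclear transcription factors they act with (Nrf1, Gabpa and Esrra). The rest are the mitochondrial transcription factors Tfam and Tfb2m, the mitochondrial rRNA methyltransferase Tfb1m and the mitochondrial deacetylase Sirt3. Every probe set that the array annotation matched to a member alone was kept, which gave 21 probe sets for the 10 genes, of 45037 probe sets for 18193 genes in all. A probe set is a group of short probes that reads 1 stretch of a transcript, and a gene was summarised by the probe set with the highest mean over the arrays.

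The 3 Sod2-/- arrays (replicates 31, 35 and 39) and the 4 Sod2+/+ arrays (replicates 17, 29, 33 and 37) held RNA of TER-119+ CD71+ erythroblasts sorted from bone marrow of irradiated C57BL/6 hosts that carried the Ly5.1 allele. Hosts of both groups, 11 to 15 weeks old, received 1050 rad in 2 doses and fetal liver cells of Sod2-/- or Sod2+/+ littermate embryos at E13.5 to E16.5, on a C57BL/6 background carrying the Sod2tm1Cje allele or its wild-type counterpart. The sources used here do not give the age of the chimeric mice at sorting, and no gate on the donor allele is described for the sort, so blood cells left from the host may be among those sorted. Because that allele removes part of the gene and its transcript can still be made, the 4 Sod2 probe sets do not check the labels: the brightest read 8.47, 8.09 and 8.61 in Sod2-/- arrays, against 8.32, 8.62, 8.20 and 8.59 in Sod2+/+ arrays. The labels number the replicates without saying which animals each array represents, so a p-value here covers only how far these 7 arrays spread, which may be technical, and the number of arrays limits the precision.

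PGC-1alpha, encoded by Ppargc1a, and its relatives bind no DNA themselves and raise transcription by docking on factors such as nuclear respiratory factor 1 (Nrf1), the GA-binding protein (Gabpa and its beta subunits, also called NRF-2) and the estrogen-related receptor alpha (Esrra). These factors bind nuclear genes for respiratory chain subunits and for Tfam, Tfb1m and Tfb2m, whose products enter mitochondria. Those of Tfam and Tfb2m start transcription of the mitochondrial genome there, while that of Tfb1m methylates mitochondrial rRNA. Developing erythroblasts depend on mitochondria for heme and iron-sulfur cluster synthesis, and lose them only at the end of maturation.

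Several members are themselves described targets of these factors, so promoter sequence is shown for the members whose window holds a motif of one of them. RefSeq windows on GRCm38.p6, each running 250 bases before to 50 bases after a start site, were searched for 9 of the 10 members (11 windows). No window of Ppargc1b was searched, so nothing is said here about its promoter. Both strands were searched for 5 motifs: GCGCANGCG for NRF1, CCGGAAG for GABP, AAGGTCA for ERR, AAGATGGC for YY1 and the E-box CACGTG, with N for any base and no mismatch allowed. A GABP motif was found in 3 member windows, for Tfam, Sirt3 and Gabpa itself, and an NRF1 motif in 2, for Esrra and Tfb2m. The windows of Ppargc1a, Pprc1, Nrf1 and Tfb1m held none of the 5 motifs as spelled. Over all 32851 windows the share was 8.86% for GABP, 6.25% for NRF1, 4.72% for ERR, 2.75% for YY1 and 7.15% for the E-box. In the following lines capitals mark the motif, read 5′ to 3′ on the strand of the gene. Positions count from the start site of the window, which for Tfam, Gabpa, Esrra and Tfb2m lies inside the annotated gene span. The Tfam line covers chr10:71238045-71238294 (minus strand) and holds the GABP motif at positions -47 to -41 from the start site. The Sirt3 line covers chr7:140882310-140882559 (minus strand) and holds it on the opposite strand at positions -85 to -79. The Gabpa line covers chr16:84835011-84835070 (plus strand), with a GABP motif first and a YY1 motif second, both on the opposite strand. The Esrra line covers chr19:6921910-6921969 (minus strand), and the Tfb2m line covers chr1:179546245-179546274 (minus strand), where the NRF1 motif lies just after the start site, at positions 13 to 21, on the opposite strand.
Tfam: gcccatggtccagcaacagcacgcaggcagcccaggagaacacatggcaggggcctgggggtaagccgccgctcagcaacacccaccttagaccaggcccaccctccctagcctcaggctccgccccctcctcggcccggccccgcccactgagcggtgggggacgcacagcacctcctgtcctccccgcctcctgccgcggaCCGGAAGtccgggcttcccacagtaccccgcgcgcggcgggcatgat
Sirt3: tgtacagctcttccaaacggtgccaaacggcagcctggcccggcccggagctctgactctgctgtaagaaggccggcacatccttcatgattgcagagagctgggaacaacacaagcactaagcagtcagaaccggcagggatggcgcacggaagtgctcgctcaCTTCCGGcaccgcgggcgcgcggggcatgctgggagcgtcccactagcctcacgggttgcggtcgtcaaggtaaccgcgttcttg
Gabpa: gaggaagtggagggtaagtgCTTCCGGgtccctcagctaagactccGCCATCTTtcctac
Esrra: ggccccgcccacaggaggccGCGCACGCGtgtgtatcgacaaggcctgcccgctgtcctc
Tfb2m: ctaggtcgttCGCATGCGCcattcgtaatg
A match of these letters is a description of the window and not evidence of a bound site.

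Of the 10 genes, 2 (Tfam and Sirt3) fell in Sod2-/- erythroblasts, and none rose on its brightest probe set. The 2 genes called lower compare with 4.47% of all genes measured, and the 0 called higher with 0.412%. At an unadjusted p under 0.05 limma gave 5 members lower and 0 higher, where it gave 18.4% and 6.68% of all genes. All Sod2-/- values lay below all Sod2+/+ values in 4 members (Tfam, Sirt3, Tfb1m and Pprc1), where 14.8% of all genes did so, and in 0 members did they all lie above, where 7.19% of genes did. The median log2 fold change (Sod2-/- minus Sod2+/+ throughout) was -0.31 over the 10 members and 0.02 over all genes. Counted by probe set, 2 of 21 were called lower, against 2.83% of all probe sets, and 1 was called higher, against 0.566%. By the same count 4 lay wholly below the Sod2+/+ values, against 10.2%, and 1 wholly above, against 7.84%. The plot of values by array shows the 10 genes side by side.

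**Figure D1:**
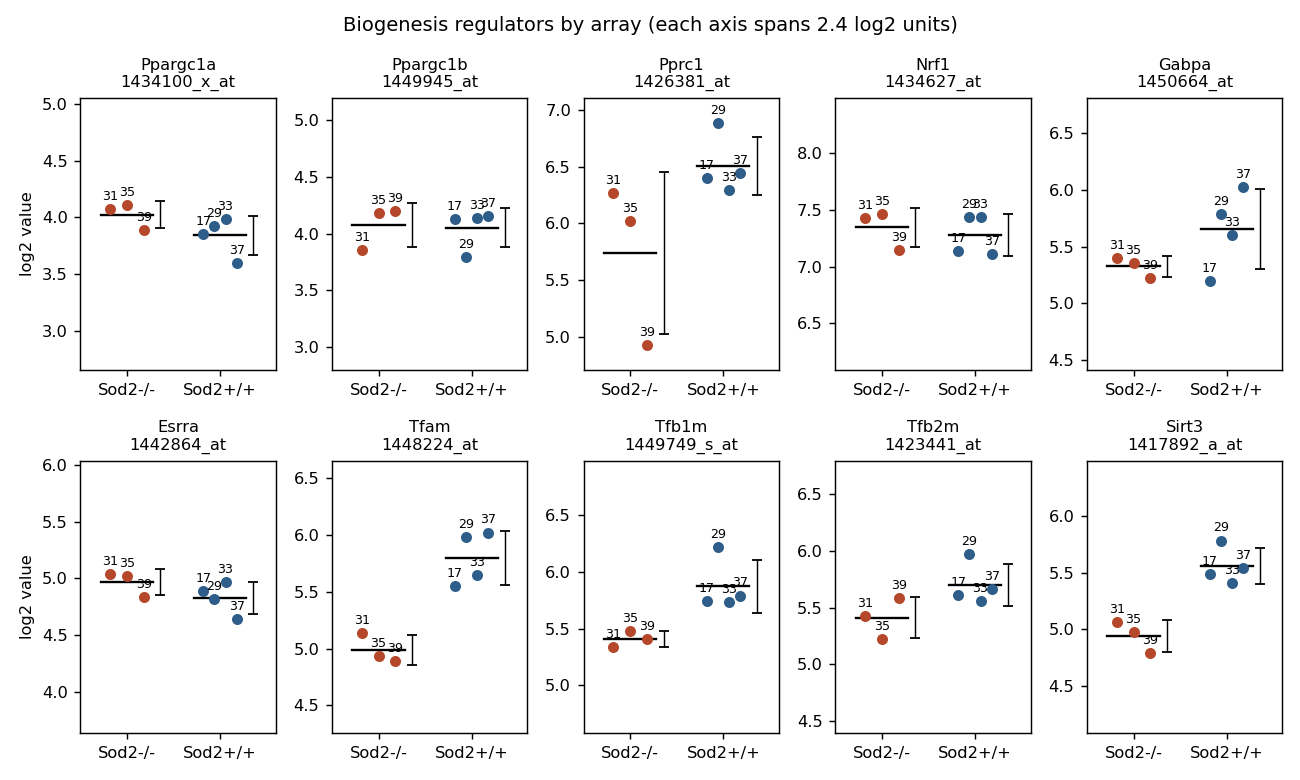
Log2 value (vertical axis, deposited RMA scale) of the brightest probe set of each of the 10 members, with 3 Sod2-/- arrays on the left and 4 Sod2+/+ arrays on the right, numbered by replicate; horizontal bars are means and the side bars span 1 SD either way. The groups are apart for Tfam, Sirt3, Tfb1m and Pprc1, the last with 1 Sod2-/- array at 4.93, and they overlap in the other 6.

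Tfam, mitochondrial transcription factor A, coats and bends mitochondrial DNA and is needed for its transcription and copy number. Its gene spans chr10:71225468-71238328. Its brighter probe set (1448224_at) read 5.14, 4.93 and 4.89 in Sod2-/- arrays, against 5.55, 5.98, 5.65 and 6.02 in Sod2+/+ arrays. The highest Sod2-/- array was thus below the lowest Sod2+/+ array. The mean was 4.99 ± 0.13 in Sod2-/- and 5.80 ± 0.24 in Sod2+/+ cells (SD, n = 3 and 4), a log2 fold change of -0.81 (SE 0.13, limma adjusted p = 0.0233), or 1.76-fold lower with a 95% interval of 1.43 to 2.16. The other Tfam probe set (1456215_at) read 4.87, 5.06 and 4.96 in Sod2-/- arrays, against 4.98, 4.98, 5.00 and 4.98 in Sod2+/+ arrays. It showed no such gap, with a log2 fold change of -0.02 (SE 0.07, adjusted p = 0.899) and a 95% interval of -0.18 to 0.13. The fall of Tfam thus rests on 1 of its 2 probe sets, and the mean of both gave a log2 fold change of -0.42 (adjusted p = 0.0245). Which part of the transcript each probe set reads was not analysed here.

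Sirt3, the main protein deacetylase of the mitochondrial matrix, has 1 probe set (1417892_a_at) and spans chr7:140863663-140882309. It read 5.07, 4.98 and 4.79 in Sod2-/- arrays, against 5.49, 5.78, 5.41 and 5.54 in Sod2+/+ arrays. Here too every Sod2-/- array was below every Sod2+/+ array. The log2 fold change was -0.61 (SE 0.11, limma adjusted p = 0.0271), which is 1.53-fold lower with a 95% interval of 1.29 to 1.80. The other 6 sirtuins did not pass the test, with log2 fold changes between -0.23 for Sirt7 and 0.22 for Sirt5.

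The calls of Tfam and Sirt3 depended on single arrays although their direction did not. Both were kept without Sod2+/+ replicate 17, Sod2+/+ replicate 33 or Sod2-/- replicate 31, and both were lost without Sod2+/+ replicate 29, Sod2+/+ replicate 37, Sod2-/- replicate 35 or Sod2-/- replicate 39. With 1 array left out, the Tfam log2 fold change ran from -0.90 to -0.74 with adjusted p from 0.0279 to 0.0830, and that of Sirt3 from -0.67 to -0.53 with adjusted p from 0.0316 to 0.0869. The arrays were processed on 2 fluidics stations and came from 2 chip lots. Within station 1 (Sod2-/- replicate 31 against Sod2+/+ replicates 17 and 29) the log2 fold change was -0.63 for Tfam and -0.57 for Sirt3, and within station 2 (Sod2-/- replicates 35 and 39 against Sod2+/+ replicates 33 and 37) it was -0.93 for Tfam and -0.59 for Sirt3. With the station as a block both calls held (adjusted p = 0.0402 for Tfam and 0.0372 for Sirt3). The second lot holds only Sod2-/- replicates 31 and 39. With the lot as a block the genotype difference thus rests on Sod2-/- replicate 35 alone and is given as an effect size only. The log2 fold changes were then -0.87 for Tfam and -0.58 for Sirt3. The plot of the 3 called probe sets under each setting shows these values.

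**Figure D2:**
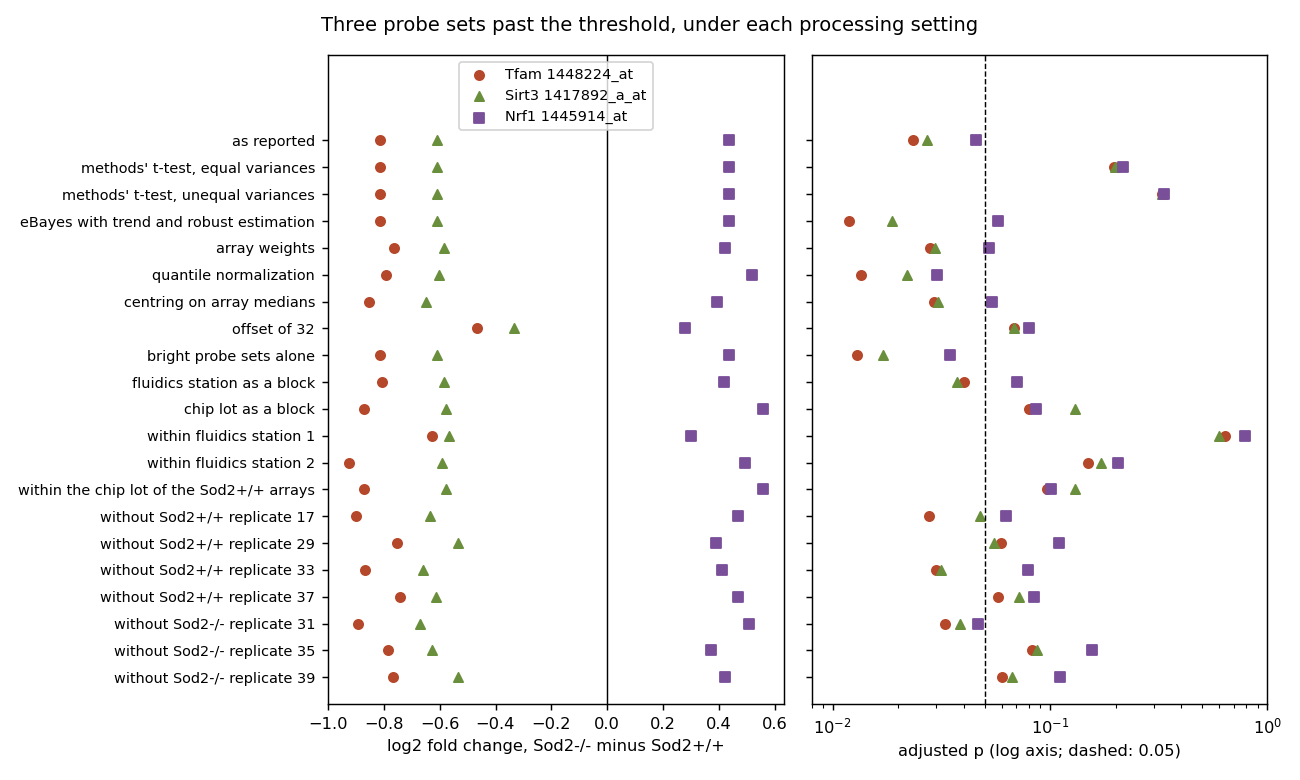
Log2 fold change (left panel) and adjusted p on a log axis (right panel, dashed line at 0.05; from limma unless the setting names another test) of the probe sets of Tfam, Sirt3 and Nrf1 that passed the threshold, under each processing setting listed on the left. Every Tfam and Sirt3 value stays below 0 and every Nrf1 value above 0, while the adjusted p lies on both sides of 0.05 for all 3.

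The mitochondrial rRNA methyltransferase Tfb1m and its paralog Tfb2m, the factor that melts mitochondrial promoters together with the polymerase, did not pass the test. Tfb1m, at chr17:3519250-3557796, lies on the chromosome that carries Sod2, 9.49 Mb away, so that flanking DNA kept from the mutant strain cannot be told apart from the genotype there. Its brighter probe set (1449749_s_at) read 5.34, 5.48 and 5.41 in Sod2-/- arrays, against 5.74, 6.22, 5.74 and 5.79 in Sod2+/+ arrays. The values do not overlap, and the log2 fold change was -0.46 (SE 0.12, adjusted p = 0.0785). The second Tfb1m probe set (1435924_at) read 5.09, 5.21 and 4.71 in Sod2-/- arrays, against 5.22, 5.59, 5.02 and 5.29 in Sod2+/+ arrays, with a log2 fold change of -0.28 (adjusted p = 0.377). Tfb2m, at chr1:179528052-179546305, read 5.43, 5.22 and 5.59 in Sod2-/- arrays, against 5.61, 5.97, 5.56 and 5.66 in Sod2+/+ arrays. These overlap by 1 array, and the log2 fold change was -0.29 (SE 0.12, adjusted p = 0.237).

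Of the 3 coactivators, Pprc1 had the larger difference and the widest spread, and the other 2 were measured near the bottom of the scale. Pprc1, a PGC1 relative described as responsive to growth signals, spans chr19:46056526-46072909 and read 6.27, 6.02 and 4.93 in Sod2-/- arrays, against 6.40, 6.88, 6.29 and 6.45 in Sod2+/+ arrays. All 3 Sod2-/- values are below the lowest Sod2+/+ value, narrowly for replicate 31 and widely for replicate 39. The log2 fold change was -0.77 (SE 0.29, adjusted p = 0.191), and without Sod2-/- replicate 39 it was -0.36 (adjusted p = 0.322). Ppargc1b, which encodes PGC-1beta, the family member long linked to basal mitochondrial content, read 3.85, 4.18 and 4.20 in Sod2-/- arrays, against 4.13, 3.79, 4.14 and 4.16 in Sod2+/+ arrays. The groups overlap, with a log2 fold change of 0.03 (95% interval -0.25 to 0.30, adjusted p = 0.939). Ppargc1a, at chr5:51454249-52115853, the cold- and exercise-induced coactivator of brown fat and muscle, has 5 probe sets. Its brightest (1434100_x_at) read 4.08, 4.11 and 3.89 in Sod2-/- arrays, against 3.86, 3.93, 3.99 and 3.60 in Sod2+/+ arrays, with a log2 fold change of 0.18 (SE 0.11, adjusted p = 0.393). The other 4 probe sets gave log2 fold changes between -0.06 and 0.13, and their values lay between 3.50 and 4.18 on all arrays. The 5 probe sets of Ppargc1a and that of Ppargc1b were below the median probe set of every array (array medians of 4.45 to 4.54), where these arrays give little room to see a fall.

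The DNA-binding partners gave mixed values. Nrf1, at chr6:30047985-30153458, has 4 probe sets that disagree. The brightest (1434627_at) read 7.43, 7.47 and 7.15 in Sod2-/- arrays, against 7.14, 7.44, 7.44 and 7.11 in Sod2+/+ arrays, with a log2 fold change of 0.07 (SE 0.12, adjusted p = 0.813). A second (1420978_at) read 7.19, 6.88 and 7.06 in Sod2-/- arrays, against 7.19, 7.50, 7.22 and 7.35 in Sod2+/+ arrays. Its log2 fold change was -0.27 (adjusted p = 0.195), and -0.05 after quantile normalization. The probe set 1445914_at rose: it read 5.89, 6.16 and 6.06 in Sod2-/- arrays, against 5.71, 5.47, 5.53 and 5.70 in Sod2+/+ arrays, a log2 fold change of 0.43 (SE 0.09, limma adjusted p = 0.0454). That call was lost without any 1 of 6 arrays, namely Sod2+/+ replicates 17, 29, 33 and 37 and Sod2-/- replicates 35 and 39 (adjusted p of 0.0626 to 0.155), and held without Sod2-/- replicate 31 (0.0466). The fourth (1424787_a_at) had a log2 fold change of -0.17 (adjusted p = 0.540). The plot of differences by probe set shows the spread within Nrf1.

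**Figure D3:**
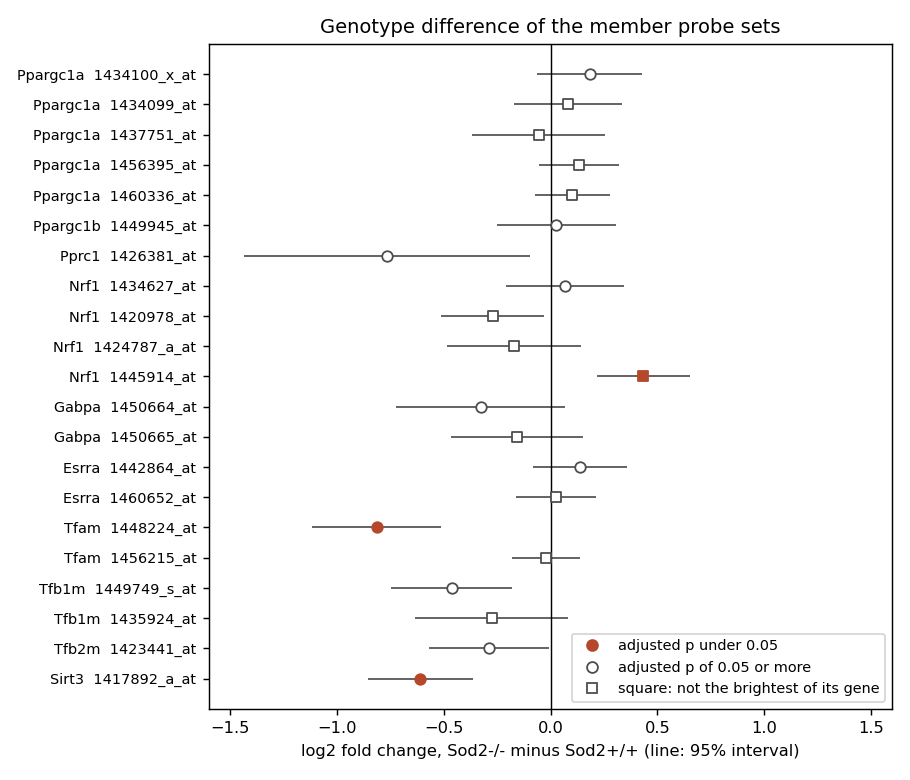
Log2 fold change, Sod2-/- minus Sod2+/+, of the 21 member probe sets on the horizontal axis, with lines for the 95% interval of limma, circles for the brightest probe set of a gene, squares for its others, and filled symbols for an adjusted p under 0.05. The filled symbols are Tfam 1448224_at at -0.81, Sirt3 at -0.61 and Nrf1 1445914_at at 0.43, and the widest interval is that of Pprc1.

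Gabpa, the ETS-domain subunit of GABP, spans chr16:84834891-84863783 and read 5.40, 5.36 and 5.22 in Sod2-/- arrays, against 5.20, 5.79, 5.60 and 6.03 in Sod2+/+ arrays. Sod2+/+ replicate 17 lies at the bottom of both groups, and the log2 fold change was -0.33 (SE 0.17, adjusted p = 0.338). The second Gabpa probe set had a log2 fold change of -0.16 (adjusted p = 0.576). Esrra, at chr19:6910977-6922048, read 5.04, 5.02 and 4.83 in Sod2-/- arrays, against 4.88, 4.81, 4.97 and 4.64 in Sod2+/+ arrays. The groups overlap, with a log2 fold change of 0.14 (SE 0.09, adjusted p = 0.470), and 0.02 on its second probe set (adjusted p = 0.911). The interval for Gabpa ran from -0.72 to 0.06 and that for Esrra from -0.08 to 0.35, so a moderate difference in either is not excluded by these arrays.

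Genes that share a promoter window with a member were looked up in the same RefSeq windows. Windows on the opposite strand overlapped for 4 members. Gabpa shares 247 bases with Atp5j, a subunit of the ATP synthase stalk. Atp5j fell, with 9.21 ± 0.16 in Sod2-/- and 9.80 ± 0.13 in Sod2+/+ cells (SD, n = 3 and 4), a log2 fold change of -0.59 (limma adjusted p = 0.0267), and this call was lost without Sod2+/+ replicate 29 or 37 or Sod2-/- replicate 35 or 39 (adjusted p up to 0.0945). Sirt3 shares 184 bases with Psmd13, a subunit of the proteasome cap, which had a log2 fold change of -0.20 (SE 0.09, adjusted p = 0.269). Tfb2m shares 248 bases with Cnst, whose log2 fold change was 0.25 (SE 0.08, adjusted p = 0.129). Tfb1m shares 168 bases with 1700102H20Rik, which was not measured here.

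Lists of genes that act with the members, or on which they act, were drawn up from general knowledge. The respiratory genes with NRF1 or GABP sites described in rat or human promoters had 19 of 20 members below 0 and a median log2 fold change of -0.32, against 0.02 over all genes. These are bright genes, with 16 of 20 at a mean of 8 or more, and among all genes with a mean of 8 to 9 the median was already -0.31 and 81.8% lay below 0 (-0.23 and 74.1% at 9 to 10). After quantile normalization the list median was -0.17, against -0.06 at 8 to 9 and -0.04 at 9 to 10. Genes with a mean of 10 or more had a median of -0.12 with 60.8% below 0, and 0.00396 after quantile normalization. Of the list, 3 fell and 0 rose by the adjusted threshold, and 15 were lower at an unadjusted p under 0.05, where limma called 13.8% of all genes at 8 to 9 lower and gave 51.6% at the unadjusted threshold. At 10 or more these shares were 6.38% and 34.6%. The means of the list reach 12.08, with a median of 9.50, so no 1 of these ranges matches the list. Sdhd, a membrane anchor of succinate dehydrogenase, was at 7.87 ± 0.13 in Sod2-/- and 8.58 ± 0.16 in Sod2+/+ cells (SD, n = 3 and 4), a log2 fold change of -0.71 (SE 0.10, limma adjusted p = 0.0177). Surf1, an assembly factor of cytochrome c oxidase, fell by 0.58 (adjusted p = 0.0248), and Cox6c, a subunit of that enzyme, fell by 0.40 (adjusted p = 0.0471), both on the log2 scale. The Sdhd call was lost only without Sod2-/- replicate 35 (adjusted p = 0.0684), that of Surf1 without any of Sod2+/+ replicates 17, 29 and 37 and Sod2-/- replicates 35 and 39 (up to 0.0895), and that of Cox6c without any 1 array (0.0520 to 0.154).

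Among 10 known SIRT3 substrates that were measured, Sod2 itself included, 3 fell and 0 rose, where 4.47% and 0.412% of all genes did. The list median was -0.40, and -0.20 with 1 called lower after quantile normalization. Of the 10 substrates 7 had a mean of 8 or more, the range in which all genes were shifted as described for the respiratory list. The 3 that fell include Ndufa9, a complex I subunit, with a log2 fold change of -0.71 (limma adjusted p = 0.0287). Atp5o, a subunit that joins the ATP synthase head to its stalk, was at -0.45 (0.0303). Idh2, the NADP-dependent isocitrate dehydrogenase of the matrix, was at -0.62 (0.0328). With means of 6.02 in Sod2-/- and 6.64 in Sod2+/+ cells, Idh2 lies below that bright range. The Ndufa9 call was lost without Sod2+/+ replicate 17, 29 or 37 or Sod2-/- replicate 35 or 39, that of Atp5o without Sod2+/+ replicate 17, 29 or 37 or Sod2-/- replicate 31 or 35, and that of Idh2 without any array but Sod2-/- replicate 31, with adjusted p of at most 0.109, and over the mean of its probe sets Idh2 was at -0.30 (adjusted p = 0.0801). These are levels of mRNA, while SIRT3 acts on the proteins.

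In the other lists at most 1 gene passed. Over all genes 4.47% were called lower, so 1 call in a list of 12 to 15 genes says little about that list. Of 14 genes of mitochondrial transcription and genome maintenance, Slirp, which with Lrpprc keeps mitochondrial mRNAs stable, fell by 0.97 on the log2 scale (limma adjusted p = 0.0310), a call lost without Sod2+/+ replicate 29 or 37 or Sod2-/- replicate 31 or 35 (up to 0.104), and the list median was -0.10. Of 12 genes of mitochondrial rRNA modification and ribosome assembly, Dap3, a protein of the small mitochondrial ribosomal subunit, fell by 0.86 (adjusted p = 0.0173; 0.0694 without Sod2-/- replicate 35), and the median was -0.02. Of 15 upstream kinases and regulators of the coactivators, Mapk14, the p38 alpha kinase that phosphorylates PGC-1alpha, fell by 0.64 (adjusted p = 0.0396; adjusted p = 0.618 and a log2 fold change of -0.07 over the mean of its probe sets), a call lost without Sod2+/+ replicate 17, 29 or 37 or Sod2-/- replicate 35 or 39 (up to 0.126), with a median of -0.01. Of 19 partners and corepressors none passed by limma (4 lower and 1 higher at an unadjusted p under 0.05), with a median of -0.08. The 2 with the smallest p were Yy1, a zinc finger factor that binds PGC-1alpha, at -0.35 (SE 0.09, adjusted p = 0.0747), and Gabpb1, the beta subunit of GABP, at -0.56 (SE 0.19, adjusted p = 0.149). The plot of the lists shows each gene.

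**Figure D4:**
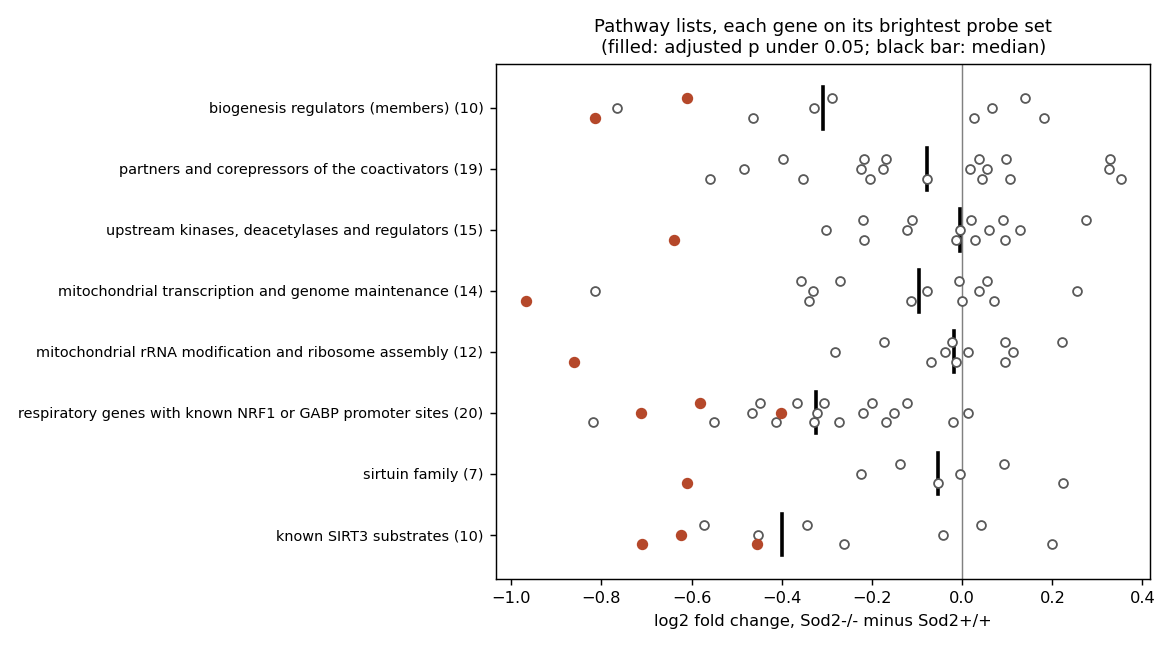
Log2 fold change, Sod2-/- minus Sod2+/+, of every measured gene in the 8 pathway lists (number of genes in brackets), with filled points for a limma adjusted p under 0.05 and a black bar at each median. The medians of the respiratory genes and of the SIRT3 substrates lie at -0.32 and -0.40, and all filled points lie below 0.

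Markers of several other cell types also differed between the genotypes. Among 9 measured B cell markers 7 fell (median -1.01), and their mean level was 5.28 to 5.52 in Sod2-/- and 6.30 to 6.62 in Sod2+/+ arrays. All 11 neutrophil markers were lower without passing the test (median -0.84), with means of 9.66 to 10.96 in Sod2-/- and 10.92 to 11.34 in Sod2+/+ arrays. Early erythroid and progenitor markers had means of 6.41 to 6.78 in Sod2-/- and 6.90 to 7.24 in Sod2+/+ arrays. Of these 8, Myb (-1.24) and Cdk6 (-0.50) fell, and Cd44 (-0.98) and Spi1 (-0.75) were lower without passing. Kit (0.10), Zfpm1 (0.08), Gata2 (-0.06) and Cd34 (-0.01) were near 0. The 12 measured erythroid markers had means of 10.55 to 10.71 in Sod2-/- and 10.55 to 10.60 in Sod2+/+ arrays with none past the test. The 8 measured late erythroid markers had means of 11.52 to 11.66 in Sod2-/- and 11.40 to 11.53 in Sod2+/+ arrays, also with none past it. Eosinophil and mast cell markers had means of 5.53 to 6.04 in Sod2-/- and 6.46 to 7.19 in Sod2+/+ arrays. Of these 4 the eosinophil genes Prg2 (-1.83) and Epx (-1.87) fell, while the mast cell genes Cpa3 (-0.19) and Ms4a2 (-0.03) did not pass. Of 5 T cell and 5 megakaryocyte markers limma called 0, with medians of 0.03 and 0.00056. The 9 macrophage markers, of which limma called 0, and 0 at an unadjusted p under 0.05, had means of 5.05, 4.99 and 6.57 in Sod2-/- replicates 31, 35 and 39, against 4.96 to 5.18 in Sod2+/+ arrays. The log2 difference of the 3′ and 5′ Gapdh probe sets, a sign of RNA integrity, averaged 1.14 ± 0.06 in Sod2-/- and 1.32 ± 0.10 in Sod2+/+ arrays (SD, n = 3 and 4; exact two-sided permutation p = 0.0571, the smallest that 3 against 4 arrays allow). The same difference for beta-actin averaged 0.72 ± 0.05 in Sod2-/- and 0.75 ± 0.09 in Sod2+/+ arrays (exact two-sided permutation p = 0.857). The part of these shifts in the results for the members was not tested, and in sorted bulk cells fewer cells of a type and less RNA per cell cannot be told apart.

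Genotype differences over all genes varied with brightness. Genes with a mean of 4 to 5 had a median log2 fold change of 0.06, those of 5 to 6 of 0.03, those of 6 to 7 of -0.15, those of 7 to 8 of -0.28, and those of 10 or more of -0.12. After quantile normalization these medians were 0.02, 0.05, 0.01, -0.05 and 0.00396. Over all probe sets limma called 1275 lower and 255 higher in Sod2-/- arrays, and 826 lower and 656 higher after quantile normalization. Tfam and Sirt3, both in the range of 5 to 6, kept log2 fold changes of -0.79 (adjusted p = 0.0134) and -0.60 (adjusted p = 0.0220) after that normalization. In that range 3.39% of genes were called lower.

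Across the 10 members the Sod2-/- arrays were not alike. Replicate 39 was the lowest Sod2-/- array for 7 of 10 members and replicate 31 the highest for 5, and their mean deviations from the Sod2+/+ means were -0.42 for replicate 39, -0.23 for replicate 35 and -0.21 for replicate 31. Among Sod2+/+ arrays replicate 29 was the highest for 4 members, with a mean deviation of 0.15. Sod2-/- replicate 39, the array with the low Pprc1 value, is also the one with the high macrophage marker mean (6.57). The macrophage markers were not alike: their SD over the Sod2-/- arrays was 2.01 to 2.27 in C1qa, C1qb and C1qc. In the other macrophage markers it was 0.01 to 0.97. The part of that high mean in the values of the members was not tested.

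The genes whose profile over the 7 arrays was most like that of a member were found by the root mean square difference of centred log2 values. For Tfam they were Tusc1 (0.05) and Tspan13 (0.07), and for Sirt3 Nsmce4a (0.04) and Rgp1 (0.04), all 4 lower in Sod2-/- arrays by limma, with log2 fold changes of -0.79, -0.75, -0.62 and -0.61. For Pprc1 they were Abcg4 (0.10) and Wdr90 (0.11), for Tfb1m Phykpl (0.05) and Cdk13 (0.06), for Tfb2m Btaf1 (0.04) and Tnks2 (0.04), and for Gabpa Arrdc3 (0.08) and Cspp1 (0.08). For the other 4 members, whose own SD over the 7 arrays was 0.14 to 0.17, the nearest genes lay at 0.02 to 0.05. These likenesses are a ranking over 7 arrays and carry no test. Genes picked for likeness to a called member on the same arrays are bound to share its difference, so their calls add no support.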

How the data were processed

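Sorted TER-119+ CD71+ erythroblasts were measured on Affymetrix Mouse Genome arrays of the 430 2.0 design. The deposited log2 values come from the authors' robust multi-array average (RMA), and the submitters' processing notes also name GCOS 1.3.037. A further array of Sod2-/- cells, which the study describes, was not used here, and the sources used here do not say whether it took part in that step. The deposited log2 values were used with no further normalization or filter, so that compression of low values by RMA remains in them.

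After 64 control probe sets were left out, 45037 were fitted for genotype alone with lmFit and eBayes (limma 3.58.1, R 4.3.3), and p-values were adjusted by Benjamini-Hochberg over the whole set (threshold 0.05). The platform annotation gave 1 gene for 34945 probe sets, several for 932 and none for 9160. All adjusted p-values are from this fit unless stated. The limma step was tested on simulated data. The arrays were read in 2 groups of 3 and 4.

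The members, lists and tests were chosen with earlier results of these data known. Named genes were all 10 members, the 3 genes of each other list with the smallest p among those past the threshold (the 2 smallest where none passed) and the 2 genes nearest each member in profile, and genes sharing a promoter window were added after the values were seen. Alternatives were t-tests as in the methods, array weights, eBayes with trend and robust estimation, quantile normalization, median centring, an offset of 32, bright probe sets alone, station and chip lot as blocks or alone, mean of probe sets, and leaving out each array. A planned comparison of protein sequences was not run.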

Additional observations from a re-analysis of the deposited data

Results flagged for a closer look

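Within the 4 Sod2+/+ arrays, replicate 29 stood apart from the rest for 2 of the 21 member probe sets by Dixon's test at the 95% level, which chance gives in about 5% of groups. Ppargc1b was at 3.79 in that array, the lowest of a Sod2+/+ range of 3.79 to 4.16. Tfb1m (1449749_s_at) was at 6.22 in it, the highest of a range of 5.74 to 6.22. Without this array the Tfb1m log2 fold change was -0.35 (limma adjusted p = 0.0772) and that of Ppargc1b was -0.06. Groups of 3 arrays were not tested in this way, so Sod2-/- replicate 39, at 4.93 for Pprc1, was not judged.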

How the results depend on the processing

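The count of members called lower was 2 in the reported fit and 0 with either t-test of the methods, an offset of 32, the chip lot as a block, within station 1, within station 2 and within the chip lot of the Sod2+/+ arrays, and it ran from 0 to 2 when arrays were left out in turn. It was 2 with array weights, quantile normalization, median centring, trend and robust estimation, bright probe sets alone, the station as a block and the mean of probe sets, and the count called higher was 0 under every setting run. The t-tests called 3 probe sets lower and 1 higher of all 45037 with equal variances and 0 with unequal variances (limma: 1275 and 255).

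Of 276 values of member probe sets under settings other than leaving out an array, 237 kept direction and status (called or not), 25 lost the call and 14 changed sign. Of 147 with an array left out the numbers were 126, 14 and 7. Only Tfam 1448224_at, Sirt3 1417892_a_at and Nrf1 1445914_at had a call to lose, and every lost call was among them. Most values that kept their status thus belong to probe sets that were never called. Sign changes concerned values near 0. Within station 1, Ppargc1a 1437751_at was 0.0725 and 1456395_at -0.00308, Ppargc1b was -0.105 and Esrra 1460652_at -0.0704. Ppargc1b was -0.0171 after quantile normalization, -0.0138 after median centring and -0.0155 with the station as a block. Esrra 1460652_at was -0.0146 after quantile normalization, -0.0155 after median centring and -0.0581 with the chip lot as a block or within the lot. Tfam 1456215_at was 0.0747 with the lot as a block or within it and 0.0186 within station 2. With arrays left out, Ppargc1a 1434099_at ran from -0.0104 to 0.142, 1437751_at from -0.114 to 0.0767, Ppargc1b from -0.0610 to 0.138, Esrra 1460652_at from -0.0592 to 0.0664 and Tfam 1456215_at from -0.0710 to 0.0244. Of the counts of genes called in the other pathway lists, 48 of 196 moved by over 1.5 times under other settings and 23 of 98 with an array left out. Over all settings the respiratory genes called lower numbered 0 to 5 and the SIRT3 substrates 0 to 4, and 1 upstream regulator was called higher after quantile normalization. The cause of these changes was not tested.

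No paired analysis was possible because the genotypes share no replicate number and the labels, which mention pairs sorted at the same time, do not say which samples formed a pair. Low signal limits what the Ppargc1a and Ppargc1b probe sets can show, and 3 against 4 arrays limit the precision of every difference. Sod2-/- values of Tfam 1448224_at (4.89 to 5.14) and Sirt3 (4.79 to 5.07) also lie little above the array medians of 4.45 to 4.54. Both calls were lost with an offset of 32, where the Sirt3 log2 fold change was -0.33. The part of low signal in the fold sizes of these genes was not tested.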

Other observations

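Of 37 genes of the mitochondrial genome in the annotation used here, 1 is named on the platform. ND5, a subunit of complex I encoded there and transcribed with the help of Tfam, was chosen after its values were seen. It read 10.62, 10.22 and 10.88 in Sod2-/- arrays, against 10.20, 10.72, 10.41 and 10.38 in Sod2+/+ arrays. The groups overlap, with a log2 fold change of 0.15 (SE 0.17, 95% interval -0.23 to 0.53, limma adjusted p = 0.690). On the same arrays Tfam 1448224_at was lower by 1.76-fold, while Tfam 1456215_at had a log2 fold change of -0.02 (limma adjusted p = 0.899). A link between Tfam and ND5 was not tested, and 1 of 37 genes cannot stand for the mitochondrial genome.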
